A study of Mus musculus with 10 samples.

Results

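Genes transiently high or low in the mid-gestation mouse ovary were sought by setting the 4 arrays of E14.5 and E16.5, the mid stages, against the 4 arrays of E11.5 and E18.5, the end stages. These are 8 of the 10 arrays of a developmental series, in which E is the day of gestation in days post coitum (dpc). Each stage had 2 single-channel Mouse430_2 oligonucleotide arrays, hybridised with biotin-labelled RNA from 2 independent ovary preparations that had been extracted with Trizol. All samples are embryonic ovary, and the labels give no treatment, strain, genotype or number of embryos per preparation. The E12.5 arrays were left out of the comparison. A gene is called transiently high where it passed the test of the mid against the end stages and all 4 mid arrays lay above all 4 end arrays, and transiently low where all 4 lay below. Of 13104 tested genes, 121 were transiently high and 48 transiently low, which makes 169 members. The widest gaps between the groups were those of M1ap, Inca1, Ugt8a, H2-K1 and Meioc among the transiently high genes, and those of Tcl1, Iglv1, Ttc38, Ddah1 and Insig1 among the transiently low genes. The gaps of Iglv1 and Ttc38 lie within the range of background signals given below. Stra8, Dmc1, Prdm9, Stag3 and Terb1, all genes of meiotic prophase, were among the transiently high, and Kit, Jag1 and Hey1 among the transiently low.

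As is known for the mouse, primordial germ cells of the fetal ovary divide by mitosis until they enter meiosis under the influence of retinoic acid. They then pass through the prophase of the first meiotic division, in which DNA breaks are made, homologous chromosomes are paired by the synaptonemal complex, and strands are exchanged. By birth most oocytes are near or in diplotene arrest and begin to express the genes of the follicle stage. The E11.5 ovary therefore lies before meiosis, E14.5 and E16.5 lie within early and middle prophase, and E18.5 near its end.

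Signals are given as scaled signal, the deposited linear intensity after each array was brought to a common 75th percentile of 142.3. Changes are mean log2(scaled signal + 16) of the mid stages minus that of the end stages, ± SE, and adjusted p-values are those of limma over all 26890 probe sets tested. The brightest probe set stands for its gene. Any pair of the 8 arrays correlated across probe sets at r = 0.886 to 0.964, as a description, since probe sets are no replicates. The 3′ to 5′ signal ratio was 1.51 to 2.22 for the Actb control and 0.755 to 1.28 for the Gapdh control. Defining markers of the labelled tissue were present. Foxl2, a transcription factor of pregranulosa cells, read 256 and 218 at E14.5 and 559 and 542 at E16.5, against 123 and 148 at E11.5 and 467 and 463 at E18.5, and Ddx4, an RNA helicase of germ cells, read 951 and 1081 at E14.5 and 589.8 and 533 at E16.5, against 168 and 182 at E11.5 and 487 and 612 at E18.5. The 3 control probe sets with no spiked target reached at most 7.16 to 36.6 on the 8 arrays. Both E11.5 arrays lay under 36.6 for 32 of the transiently high genes, and all 4 mid arrays did so for 5 of the transiently low genes, so the size of these changes depends on the 16 added before the logarithm. By the fluidics time stamps there were 3 wash and stain runs. All 4 mid arrays shared a run of their own, both E18.5 arrays shared another, and both E11.5 arrays were in the run that also held E12.5. The mid stages and their fluidics run therefore cannot be told apart.

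Several of the transiently high genes carry in their promoters the letters of a motif reported for STRA8, the transcription factor whose gene is itself one of them, so those promoters are shown before the values. The sequences are from RefSeq, build GRCm38.p6, written 5′ to 3′ on the strand of the gene, with the motif CNCCTCAG or its reverse complement CTGAGGNG in capitals, and 30 bases on each side where the promoter reached that far.
M1ap: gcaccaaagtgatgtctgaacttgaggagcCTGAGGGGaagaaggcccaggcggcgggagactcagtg
Inca1: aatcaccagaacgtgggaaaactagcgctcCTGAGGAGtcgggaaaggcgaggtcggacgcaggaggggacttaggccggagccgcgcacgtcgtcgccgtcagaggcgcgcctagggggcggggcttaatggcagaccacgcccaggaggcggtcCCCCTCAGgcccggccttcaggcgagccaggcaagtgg
Ugt8a: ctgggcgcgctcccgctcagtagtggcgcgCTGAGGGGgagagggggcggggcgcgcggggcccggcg
Lypd4: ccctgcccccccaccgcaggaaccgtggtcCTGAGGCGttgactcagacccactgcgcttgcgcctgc
Eaf2: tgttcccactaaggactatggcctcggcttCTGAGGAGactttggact
Eaf2: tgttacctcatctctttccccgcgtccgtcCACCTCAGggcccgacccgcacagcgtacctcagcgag
These lie at chr6:82946781-82946848, plus strand; chr11:70700134-70700327, minus strand; chr3:125938647-125938714, minus strand; chr7:24869733-24869800, minus strand; and, for 2 start sites of Eaf2, chr16:36874777-36874824, minus strand and chr16:36828431-36828498, minus strand. The motif in M1ap begins 111 bases before the start of transcription, that in Ugt8a 32 bases before it and that in Lypd4 79 bases before it. Inca1 holds 2, which begin 142 and 16 bases before its start. Of the 15 transiently high genes with the widest gap between the groups, 14 had a promoter in the table, and in these 5 genes of the 14 it held the motif.

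Stra8 itself is shown for another motif, the half-site AGGTCA of retinoic acid receptors, in capitals in the window chr6:34920724-34920945, plus strand.
Stra8: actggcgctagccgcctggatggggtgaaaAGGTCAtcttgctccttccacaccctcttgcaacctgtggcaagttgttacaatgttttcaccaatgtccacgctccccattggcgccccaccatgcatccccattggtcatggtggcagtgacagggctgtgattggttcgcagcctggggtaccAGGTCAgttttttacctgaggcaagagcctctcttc
Its 2 half-sites begin 194 and 38 bases before the start of transcription, both on the strand of the gene. A match to a motif describes letters and not a bound site.

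The promoters, 250 bases before to 50 bases after each start, were searched on both strands for 4 motifs, none of which contains another. CNCCTCAG occurred in 21 of the 94 transiently high genes with a promoter in the table (22.3%) and in 1 of 37 transiently low genes (2.7%). Among all tested genes it occurred in 1182 of 10554 (11.2%), and among all genes of the table in 9.12%. AGGTCA occurred in 13.8% of the transiently high genes, 18.9% of the transiently low genes and 15.2% of all tested genes. The E-box CACGTG occurred in 10.6% and 10.8% of the transiently high and low genes, against 11.3% of all tested genes. The letters TTCCCGCC of an E2F site occurred in 8.51% of the transiently high and 13.5% of the transiently low genes, against 4.61% of all tested genes. Over all genes of the table AGGTCA occurred in 18.1%, CACGTG in 8.09% and TTCCCGCC in 2.52%. These shares are descriptions and were not tested.

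The comparison of the mid with the end stages called 426 probe sets higher (1.58% of 26890) and 227 lower (0.844%). By gene, 250 of 13104 passed the test in the higher direction (1.91%) and 140 in the lower direction (1.07%). The 4 mid arrays lay above all 4 end arrays for 292 genes (2.23%) and below them for 273 genes (2.08%), whether or not the test was passed. Both conditions held for the 121 transiently high genes (0.923%) and the 48 transiently low genes (0.366%). The median change of all tested genes was -0.03, that of the transiently high genes 1.01 and that of the transiently low genes -0.99. The transiently high genes differed by 0.56 to 3.31 and the transiently low genes by 0.6 to 2.08 in absolute size. A fit in which mid and end were 2 groups of 4, so that the differences between the stages within each group counted as error, called 0 probe sets in either direction, with 1088 higher and 637 lower at an unadjusted p under 0.05. The fit of 2 groups with the fluidics run as a random block also called 0, with 228 higher and 75 lower at that level. In it E11.5 and E18.5 differ in run as well as in stage, so it does not measure an effect of the run alone. The transiently high genes numbered 73 without E18.5 replicate 1. The transiently low genes numbered 92 without E11.5 replicate 2, 27 without E16.5 replicate 1 and 23 without E14.5 replicate 1 or either E18.5 array.

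**Figure D1:**
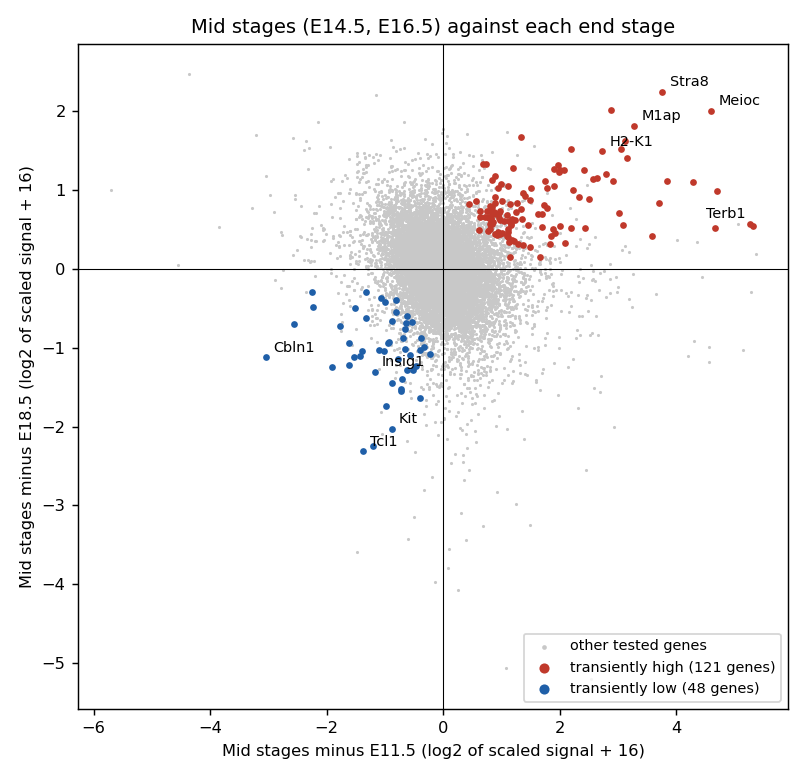
Change of the mid stages against E11.5 (x axis) and against E18.5 (y axis), both as log2 of scaled signal + 16, for each of 13104 tested genes. The 121 transiently high genes (red) lie in the upper right and the 48 transiently low genes (blue) in the lower left. Of the 121 red points, 108 lie further out along the x axis than along the y axis.

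Stra8, the gatekeeper of meiotic entry induced by retinoic acid, read 1604 and 1203 at E14.5 and 266 and 256 at E16.5, against 31.4 and 28.4 at E11.5 and 104 and 126 at E18.5. It was highest on both E14.5 arrays, and its E16.5 arrays lay above every end array. The change was 3.01 ± 0.15 (adjusted p = 2.66e-07), and the difference of E16.5 minus E14.5 was -2.34 ± 0.21 (adjusted p = 0.000119). Meioc, which with the helicase YTHDC2 keeps germ cells in meiotic prophase in the mouse, read 698 and 725 at E14.5 and 400.1 and 299 at E16.5, against 10.2 and 0.93 at E11.5 and 92.3 and 134 at E18.5. It was near the floor of the arrays at E11.5, and both of its mid stages lay above both ends. Its change was the highest among the members, 3.31 ± 0.19 (adjusted p = 7.73e-07).

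M1ap, a gene needed in mouse for male germ cells to complete meiosis, read 569.8 and 429 at E14.5 and 589 and 452 at E16.5, against 34.9 and 40.2 at E11.5 and 153 and 114 at E18.5. The 4 mid arrays were alike and all above the 4 end arrays, with the widest gap of any member. The change was 2.55 ± 0.16 (adjusted p = 1.74e-06). Inca1, an inhibitor of cyclin-dependent kinases, read 387 and 359 at E14.5 and 454 and 393 at E16.5, against 35.8 and 32 at E11.5 and 122 and 133 at E18.5. It had nearly the profile of M1ap, low at E11.5, intermediate at E18.5 and high on all mid arrays, with a change of 2.29 ± 0.14 (adjusted p = 1.6e-06). The other tested probe set of Inca1 did not pass, with a change of -0.05 ± 0.21 (adjusted p = 0.932).

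Stag3, the cohesin subunit particular to meiosis, read 547 and 613 at E14.5 and 727 and 853 at E16.5, against 59.6 and 116 at E11.5 and 278 and 292 at E18.5. Its E16.5 arrays were the highest and its E11.5 arrays the lowest, with no overlap, and it changed by 2.0 ± 0.17 (adjusted p = 2.29e-05). Atf7ip2, a partner of the histone methyltransferase SETDB1 in germ cells, read 364 and 313 at E14.5 and 323 and 283 at E16.5, against 87.2 and 53.3 at E11.5 and 141 and 113 at E18.5. All mid arrays were above all end arrays, by 1.61 ± 0.17 (adjusted p = 0.000124). Ddx43, an RNA helicase of male germ cells, read 156 and 145 at E14.5 and 136 and 162 at E16.5, against 25.2 and 31.5 at E11.5 and 63 and 63.9 at E18.5. The mid arrays formed a narrow range above both ends, and the change was 1.48 ± 0.17 (adjusted p = 0.000301).

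Lypd4, a surface protein known from mouse sperm, read 158 and 158 at E14.5 and 116 and 147 at E16.5, against 1.95 and 2.9 at E11.5 and 52.6 and 22.9 at E18.5. It lay within the range of the control probe sets with no target at E11.5 and changed by 2.37 ± 0.23 (adjusted p = 7.56e-05). Spdya, an activator of the kinase CDK2 that acts at meiotic telomeres, is named because it passed all 4 pairwise stage tests, and read 651 and 455 at E14.5 and 572 and 569 at E16.5, against 19.9 and 8.19 at E11.5 and 237 and 263 at E18.5. Its mid arrays were all above its end arrays, by 2.7 ± 0.17 (adjusted p = 1.6e-06).

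Further transiently high genes with wide gaps stood in no gene list. Ugt8a, a galactosyltransferase that makes galactolipids, read 393 and 353 at E14.5 and 313 and 173 at E16.5, against 20.7 and 32.6 at E11.5 and 56.3 and 65.6 at E18.5. Its E16.5 replicate 2 was the lowest mid array and still above every end array, and the change was 2.45 ± 0.2 (adjusted p = 1.25e-05). Acss2, the acetyl-CoA synthetase of cytosol and nucleus, read 286 and 308 at E14.5 and 326 and 359.8 at E16.5, against 69.5 and 29.9 at E11.5 and 103 and 149.6 at E18.5, with no overlap and a change of 1.84 ± 0.2 (adjusted p = 0.000172). Acer3, an alkaline ceramidase, read 269 and 241 at E14.5 and 192 and 157 at E16.5, against 45.1 and 38.3 at E11.5 and 78.9 and 70.8 at E18.5. Its E14.5 arrays were the highest, all mid arrays were above the ends, and it changed by 1.65 ± 0.16 (adjusted p = 6.85e-05). The cation channel gene Trpc1, the elongation factor partner gene Eaf2 and the carnitine transporter gene Slc22a21 changed by 1.58 ± 0.22, 1.86 ± 0.2 and 1.86 ± 0.24 (adjusted p = 0.00118, 0.000184 and 0.000669). Trpc1 read 97.5 to 140.2 on the mid arrays, against 13.2 to 47.7 on the end arrays. Eaf2 read 118 to 193 on the mid arrays, against 17.8 to 59.9 on the end arrays. Slc22a21 read 84.2 to 110 on the mid arrays, against 2.75 to 41.9 on the end arrays. The E11.5 arrays of Ugt8a, Trpc1, Eaf2 and Slc22a21 were within the range of the control probe sets. So were E18.5 replicate 1 of Trpc1 and Eaf2 and E18.5 replicate 2 of Slc22a21.

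**Figure D2:**
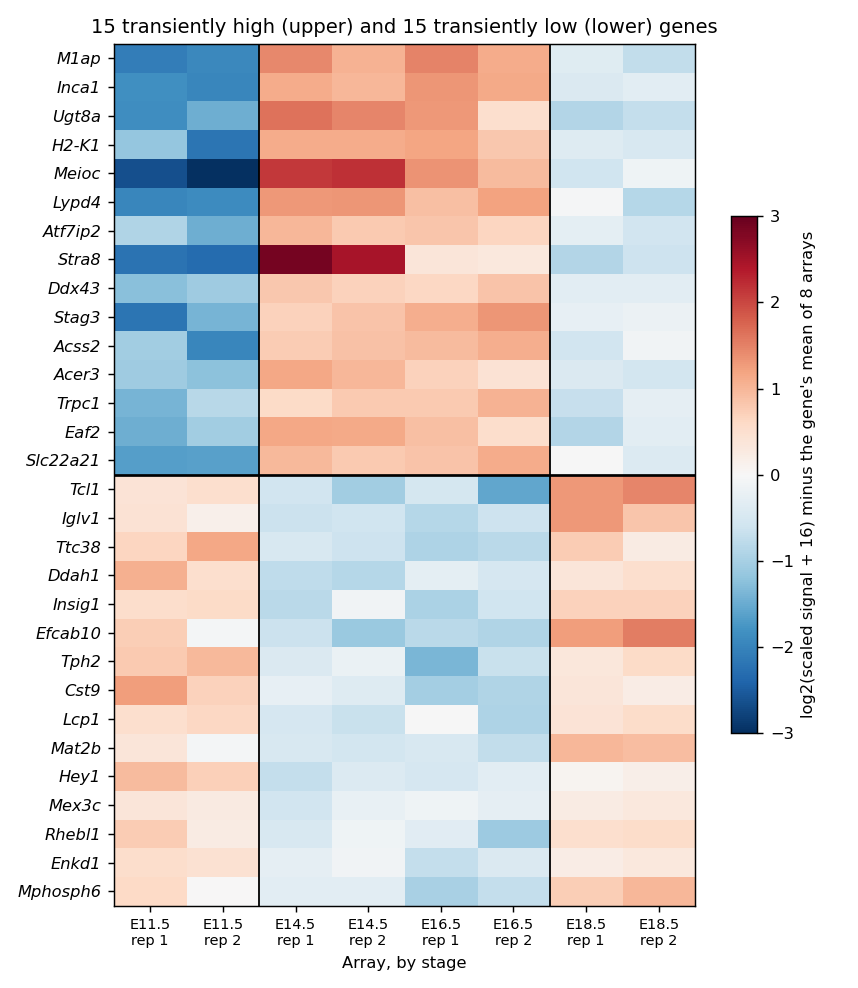
The 15 transiently high genes (upper block) and 15 transiently low genes (lower block) with the widest gap between the groups, on the 8 arrays in order of stage. Colour is log2(scaled signal + 16) minus the mean of the gene over the 8 arrays. The middle 4 columns are red in the upper block and blue or near white in the lower, and E18.5 in the upper block lies nearer the mean than E11.5.

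The strictest form of the pattern, in which E14.5 and E16.5 each differed from E11.5 and from E18.5 past the test, was met by 14 genes in the higher direction (0.107%) and by 2 in the lower direction (0.0153%). The 14 were M1ap, Inca1, Ugt8a, H2-K1, Meioc, Atf7ip2, Stra8, Stag3, Acss2, Acer3, Spdya, Dmc1, Dzip3 and Atr, and the 2 were Tcl1 and Insig1. Dzip3, a ubiquitin ligase gene, read 868 and 871 at E14.5 and 698 and 655 at E16.5, against 387 and 372 at E11.5 and 354 and 353 at E18.5, so its levels at both ends were alike. Among the 121 transiently high genes the mean was further out at E14.5 for 74 and at E16.5 for 47. Among the 48 transiently low genes it was further out at E14.5 for 16 and at E16.5 for 32. In the comparison of E16.5 with E14.5, 2 of the 121 transiently high genes were higher and 4 lower at E16.5 past the test. Of the 48 transiently low genes 1 was higher and 1 lower. Over all tested genes that comparison called 163 higher (1.24%) and 331 lower (2.53%). The counts among the members are small and near these shares, and the difference was not tested.

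The transiently high members that were higher at E16.5 than at E14.5 were Dmc1, by 0.87 ± 0.22 (adjusted p = 0.0496), and H2-D1, by 1.08 ± 0.23 (adjusted p = 0.0262). Those lower at E16.5 were Stra8, Zfp667, Ube2t, a ubiquitin-conjugating enzyme gene of DNA crosslink repair, and 1700013H16Rik, with differences of -2.34, -0.92, -1.01 and -1.12.

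The profiles were not symmetric. E18.5 was above E11.5 past the test for 58 of the 121 transiently high genes and below it for 0, while over all tested genes 1790 were higher (13.7%) and 2155 lower (16.4%) at E18.5. Among the 48 transiently low genes E18.5 was above E11.5 for 10 and below it for 9. As given with the control probe sets, both E11.5 arrays were within their range for 32 of the transiently high genes.

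The genes of meiotic entry and of DNA break formation were higher at the mid stages in 10 of 14 tested members and lower in 0, with a median change of 1.33, and 4 of them were transiently high. These were Stra8, Meioc, Mei1 and Prdm9. The shares over all tested genes, for this list and those below, were 1.91% higher and 1.07% lower. No list count was tested against these shares, and a count of 1 or 2 genes is not read as a result about its list. Prdm9, the histone methyltransferase that places recombination hotspots, read 127 and 124 at E14.5 and 158 and 117 at E16.5, against 3.9 and 17.4 at E11.5 and 62.5 and 64.5 at E18.5. The mid arrays were all above the ends, by 1.7 ± 0.22 (adjusted p = 0.000661). Mei1, needed for break formation, read 97.7 to 140.4 on the mid arrays, against 15.1 to 60.2 on the end arrays and changed by 1.28 ± 0.2 (adjusted p = 0.00365). Spo11, the enzyme that makes the breaks, passed the test but overlapped. It read 171 and 137 at E14.5 and 307 and 287 at E16.5, against 25.4 and 7.78 at E11.5 and 223 and 185 at E18.5, so E14.5 lay below E18.5, and the change was 1.47 ± 0.19 (adjusted p = 0.000826).

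Hormad1, which marks unsynapsed chromosome axes, read 917 and 874 at E14.5 and 564 and 335 at E16.5, against 25.4 and 22.2 at E11.5 and 442 and 521 at E18.5. Its E16.5 replicate 2 lay below both E18.5 arrays, so the groups overlapped, and the change was 2.19 ± 0.17 (adjusted p = 8.53e-06). Rec8, the meiotic kleisin subunit of cohesin, read 205 and 240.2 at E14.5 and 39.4 and 46.5 at E16.5, against 7.23 and 3.84 at E11.5 and 33.8 and 48.2 at E18.5. It was high at E14.5 alone, its E16.5 and E18.5 arrays lay together, and the change was 1.76 ± 0.22 (adjusted p = 0.000648). Ythdc2, the partner of Meioc, read 112 to 208 on the mid arrays, against 81.1 to 129 on the end arrays, with a change of 0.52 ± 0.16 that did not pass the test (adjusted p = 0.129). Summed over the 14 genes the scaled signal was 2412 to 5124 on the mid arrays, against 788 to 1122 on the E11.5 arrays and 2109 to 2217 on the E18.5 arrays.

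Genes of the synaptonemal complex, the chromosome axis and cohesin were higher in 10 of 14 tested members and lower in 0, with a median change of 1.89. Only Stag3 and 4930447C04Rik, which encodes the central element protein SIX6OS1, were transiently high. 4930447C04Rik read 1113 and 701 at E14.5 and 1407 and 1091 at E16.5, against 31.2 and 19.6 at E11.5 and 509 and 527 at E18.5. Its mid arrays exceeded the E18.5 arrays by a narrower margin than the E11.5 arrays, and the change was 2.84 ± 0.17 (adjusted p = 1.15e-06). Sycp3, a component of the lateral element, read 2485 and 2571 at E14.5 and 2258 and 1959.9 at E16.5, against 56.2 and 32.5 at E11.5 and 2643 and 3002 at E18.5. Both E18.5 arrays were above every mid array, so the groups overlapped although the change of 2.5 ± 0.15 (adjusted p = 1.15e-06) passed the test.

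Sycp1, the transverse filament gene, read 699 and 624 at E14.5 and 1637 and 1681 at E16.5, against 5.74 and 25 at E11.5 and 2098 and 2196 at E18.5, higher at each later stage. Smc1b, the meiotic form of a cohesin core subunit, read 1483 and 1175 at E14.5 and 1706 and 1712 at E16.5, against 13.3 and 29.7 at E11.5 and 1304 and 1318 at E18.5, with E14.5 replicate 2 below E18.5. Tex12, of the central element, read 1531 and 1835 at E14.5 and 1075 and 833 at E16.5, against 46.4 and 7.57 at E11.5 and 810.2 and 878 at E18.5, with E14.5 clearly above the rest and E16.5 beside E18.5. The 4 members that are shared with mitotic cells, Smc1a, Smc3, Rad21 and Pds5b, did not pass the test and changed by -0.13, 0.26, -0.41 and 0.05. The summed signal of the 14 genes was 14620 to 15696 on the mid arrays, against 4328 to 5240 at E11.5 and 14067 to 14796 at E18.5, so mid and E18.5 overlapped.

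Of 21 tested genes of strand exchange, crossover and mismatch repair, 8 were higher and 0 lower, with a median change of 0.25. Dmc1, the meiotic recombinase, read 303 and 249 at E14.5 and 526 and 503 at E16.5, against 33.3 and 23.4 at E11.5 and 121 and 143 at E18.5. It was highest at E16.5, and its lowest mid array was above its highest end array, with a change of 2.28 ± 0.15 (adjusted p = 2.72e-06). Meiob, which binds single-stranded DNA in meiosis, read 287 and 251 at E14.5 and 331 and 271 at E16.5, against 10.3 and 7.36 at E11.5 and 213 and 205 at E18.5. The E18.5 arrays came close to the mid arrays without overlap, and the change was 2.0 ± 0.15 (adjusted p = 8.85e-06). Prdm9, also in the list of break formation, was the other transiently high gene of this list. Tex11, an X-linked crossover gene, read 263 and 247 at E14.5 and 285 and 303 at E16.5, against 17.7 and 13.6 at E11.5 and 329 and 396 at E18.5. It was highest at E18.5 and overlapped, with a change of 1.41 ± 0.15 (adjusted p = 0.000132).

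Of 11 tested genes of telomere attachment and the nuclear envelope, 2 were higher and 1 lower, with a median change of 0.06. Terb1 and Majin encode the membrane-bound complex that ties meiotic telomeres to the nuclear envelope. Terb1 read 837 and 741 at E14.5 and 647 and 550.1 at E16.5, against 1.49 and 1.76 at E11.5 and 461 and 466 at E18.5, at the floor of the arrays at E11.5 and above both E18.5 arrays at the mid stages, by 2.93 ± 0.14 (adjusted p = 2.66e-07). Majin read 206 and 188 at E14.5 and 246 and 230.2 at E16.5, against 13.5 and 46.8 at E11.5 and 135 and 157 at E18.5. The mid arrays were above both ends, by 1.48 ± 0.21 (adjusted p = 0.00167). Acd, the shelterin component also called TPP1, went the other way and read 112 and 169.8 at E14.5 and 211 and 229 at E16.5, against 288 and 274 at E11.5 and 297 and 284 at E18.5. All mid arrays were below all end arrays, with a change of -0.66 ± 0.15 (adjusted p = 0.0391).

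General germ cell genes were higher in 10 of 25 tested members and lower in 2, with a median change of 0.54, and 3 were transiently high. Tex101, a surface protein of germ cells, read 862 and 694 at E14.5 and 888 and 808 at E16.5, against 3.67 and 7.57 at E11.5 and 549 and 533 at E18.5, with a change of 2.91 ± 0.14 (adjusted p = 2.66e-07). Its mid arrays were the highest, and E18.5 lay between them and an E11.5 level at the floor. Tex14, needed for intercellular bridges, read 345 to 504 on the mid arrays, against 68 to 317 on the end arrays and changed by 1.36 ± 0.15 (adjusted p = 0.000182). Rnf17, a tudor protein of germ cell granules, read 526 to 697 on the mid arrays, against 127 to 476 on the end arrays and changed by 1.08 ± 0.15 (adjusted p = 0.00123).

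Dazl, an RNA-binding regulator of germ cell fate, read 2314 and 2538 at E14.5 and 1114 and 659 at E16.5, against 119 and 192 at E11.5 and 1218 and 1137 at E18.5. It was highest at E14.5, and its E16.5 arrays lay below E18.5, so the groups overlapped although the change of 1.71 ± 0.18 (adjusted p = 0.000164) passed the test. Mael, of the transposon-silencing pathway, read 871 and 1091 at E14.5 and 1019 and 839 at E16.5, against 38.7 and 27.9 at E11.5 and 1768 and 1853 at E18.5, highest at E18.5. The lower members were Tdrd9 and Sohlh1, also of the germ line, and in both E18.5 was by far the highest stage. Tdrd9 read 8.04 and 4.49 at E14.5 and 46.8 and 94.3 at E16.5, against 13.9 and 38.6 at E11.5 and 604 and 554 at E18.5. The summed signal of the 25 genes was 9500 to 11953 on the mid arrays, against 1901 to 1960 at E11.5 and 14797 to 15430 at E18.5. In RNA of a whole organ, fewer cells of a type and less RNA per cell cannot be told apart.

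**Figure D3:**
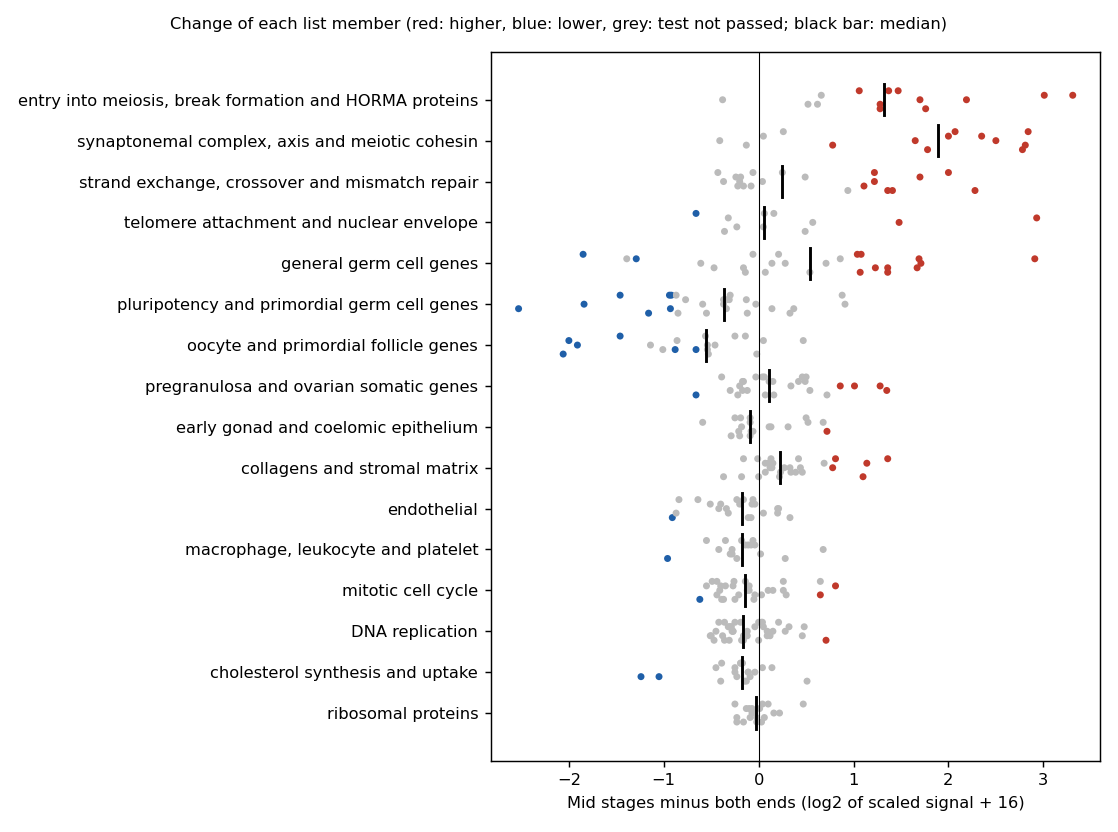
Change of the mid stages minus both ends (x axis, log2 of scaled signal + 16) for each tested member of 16 gene lists (y axis). Points are genes, red where higher and blue where lower past the test and grey where the test was not passed, and black bars are list medians. The lists of meiotic entry and of the synaptonemal complex have medians of 1.33 and 1.89, the pluripotency and oocyte lists of -0.37 and -0.56, and the ribosomal proteins of -0.03.

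Among 16 tested genes of retinoic acid synthesis, breakdown, receptors and targets, Stra8 was the only one past the test, and the median change was 0. Cyp26b1, which degrades retinoic acid, read 11.4 and 9.81 at E14.5 and 12.1 and 58.1 at E16.5, against 66.1 and 133 at E11.5 and 40 and 17.7 at E18.5. Its arrays overlapped, and the change of -0.99 ± 0.36 did not pass the test (adjusted p = 0.184). Rara, a receptor, changed by -0.37 ± 0.33 (adjusted p = 0.629).

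Both class I histocompatibility genes H2-K1 and H2-D1, which present peptides to T cells, were transiently high, and they were the only 2 of 14 tested genes of the interferon and class I list to pass the test. H2-K1 read 754 and 749 at E14.5 and 782 and 607 at E16.5, against 143 and 61.5 at E11.5 and 253 and 237 at E18.5, with a change of 2.11 ± 0.2 (adjusted p = 4.67e-05). Its mid arrays were all well above its end arrays. H2-D1 read 429 and 462 at E14.5 and 819.6 and 1129 at E16.5, against 84.7 and 52.9 at E11.5 and 397 and 394 at E18.5, highest at E16.5, with a change of 1.86 ± 0.16 (adjusted p = 2.29e-05). B2m, the invariant chain of class I molecules, read 667 and 664 at E14.5 and 1021 and 685 at E16.5, against 782 and 956 at E11.5 and 542 and 551 at E18.5, and its change of 0.12 ± 0.15 did not pass the test (adjusted p = 0.762).

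These genes have near-identical relatives, and the probe sets of H2-K1 and H2-D1 carry the suffix by which the array maker marks probes shared with other transcripts, so their signals may include other class I genes. Of the other tested probe sets, 2 of 3 for H2-K1 and 3 of 3 for H2-D1 also passed the test in the same direction. The 17 leukocyte, macrophage and platelet genes summed to 1227 to 1483 on the mid arrays, against 2180 to 2434 at E11.5 and 1228 to 1316 at E18.5. That list had 0 higher and 1 lower gene, and its part in the H2 result was not tested.

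The kinase genes of the DNA damage response Atr and Atm were transiently high. Atr read 1104 and 1105 at E14.5 and 1621 and 993 at E16.5, against 233 and 245 at E11.5 and 612 and 559 at E18.5, with a change of 1.62 ± 0.16 (adjusted p = 7e-05). It was above both ends at both mid stages. Atm read 355 and 317 at E14.5 and 240.5 and 272 at E16.5, against 175 and 143 at E11.5 and 169 and 167 at E18.5. Its ends were alike, its mid arrays were above them, and the change was 0.79 ± 0.14 (adjusted p = 0.00926). They were the 2 higher genes among 19 tested genes of oocyte survival and apoptosis, none of which was lower, and that list had a median change of -0.15.

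Of 28 tested genes of BMP, activin and TGF-beta signalling, 2 were higher and 1 lower. The higher ones, Fst and Bmp2, also stand in the list of pregranulosa genes and were transiently high. Fst, the activin antagonist follistatin made by ovarian somatic cells, read 473 and 527 at E14.5 and 687 and 622 at E16.5, against 160.4 and 244 at E11.5 and 337 and 435 at E18.5. Its lowest mid array was above its highest end array, and the change was 1.01 ± 0.16 (adjusted p = 0.00322). The other tested probe set of Fst overlapped and did not pass, with a change of 0.62 ± 0.25 (adjusted p = 0.238). Bmp2, a BMP ligand, read 568 and 495 at E14.5 and 323 and 317 at E16.5, against 196 and 157 at E11.5 and 246 and 308 at E18.5. It was highest at E14.5, its E16.5 arrays lay just above E18.5, and the change was 0.86 ± 0.14 (adjusted p = 0.00533). Id1, a target of BMP signals, read 581 and 674 at E14.5 and 1181 and 1308 at E16.5, against 559 and 598 at E11.5 and 3189 and 3224 at E18.5, highest at E18.5, with a change of -0.62 ± 0.13 (adjusted p = 0.0226).

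Of 27 tested pregranulosa and ovarian somatic genes, 4 were higher and 1 lower, and the median change was 0.11, which reached -0.01 without E11.5 replicate 1. Beside Fst and Bmp2, the transcription factor gene Irx3 and the Wnt co-receptor gene Lgr5 passed the test but overlapped. Irx3 read 696 and 549 at E14.5 and 833 and 1105 at E16.5, against 84.1 and 82.1 at E11.5 and 946 and 940.1 at E18.5, low at E11.5 alone, with a change of 1.35 ± 0.14 (adjusted p = 0.000158). The summed signal of these genes was 11135 to 14544 on the mid arrays, against 8227 to 9826 at E11.5 and 12834 to 12997 at E18.5. Wnt4, a ligand of ovary development, read 387 and 371 at E14.5 and 543 and 543 at E16.5, against 354 and 564 at E11.5 and 437 and 437 at E18.5, with a change of 0.04 ± 0.15 that did not pass the test (adjusted p = 0.934).

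Cited1, a transcriptional coregulator listed with mesonephros and kidney genes, was transiently high. It read 248 and 225 at E14.5 and 155 and 89.5 at E16.5, against 10.8 and 6.22 at E11.5 and 57.3 and 82.4 at E18.5, with a change of 2.02 ± 0.21 (adjusted p = 0.000124). It was the only one of 13 tested mesonephros genes to pass the test, and the summed signal of that list was 1657 to 2473 on the mid arrays, against 2967 to 3047 at E11.5 and 1288 to 1335 at E18.5.

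Among 28 tested collagens and matrix genes of stroma, 5 were higher and 0 lower, with a median change of 0.22. Bgn, the proteoglycan biglycan, was the transiently high one and read 346 and 329 at E14.5 and 869.7 and 501 at E16.5, against 270.3 and 246 at E11.5 and 234 and 306 at E18.5, with a change of 0.81 ± 0.17 (adjusted p = 0.026). The E16.5 arrays were the highest, and E14.5 stood just above the ends. For Bgn, E14.5 did not differ past the test from E11.5 or from E18.5 (adjusted p = 0.445 and 0.43). Other tested probe sets of Bgn overlapped and did not pass, with changes of 0.38 ± 0.18 and 1.11 ± 0.31 (adjusted p = 0.324 and 0.0907). Col6a2, a collagen VI chain, read 1014 and 1128 at E14.5 and 1439 and 1456 at E16.5, against 214 and 211 at E11.5 and 1022 and 1046 at E18.5, low at E11.5 and overlapping with E18.5, with a change of 1.36 ± 0.13 (adjusted p = 4.12e-05). The smooth muscle actin gene Acta2 was transiently high and read 919 and 1042 at E14.5 and 1092 and 735 at E16.5, against 592 and 452 at E11.5 and 582 and 558 at E18.5, with a change of 0.77 ± 0.16 (adjusted p = 0.0195). Rgs5, a pericyte gene, was the lower one of the 10 tested smooth muscle genes, high at E11.5 alone.

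Myh8, the perinatal myosin of skeletal muscle, read 50.1 and 42.4 at E14.5 and 63.4 and 55.3 at E16.5, against 2.98 and 4.77 at E11.5 and 24.1 and 11.9 at E18.5, and with Acta1 and Actc1 it made 3 higher of 9 tested muscle genes. The change of Myh8 was 1.41 ± 0.31 (adjusted p = 0.0293), and the list summed to 986 to 1844 on the mid arrays, against 938 to 943 at E11.5 and 1048 to 1200 at E18.5. Elavl3, a neuronal RNA-binding protein, read 41.8 to 86 on the mid arrays, against 5.44 to 19.6 on the end arrays and changed by 1.5 ± 0.34 (adjusted p = 0.0339). It was the only one of 19 tested neural genes past the test, and the list summed to 1004 to 2016 on the mid arrays, against 1140 to 1447 at E11.5 and 879 to 932 at E18.5. All end arrays of Myh8 and of Elavl3 were within the range of the control probe sets, so their end levels are not measured apart from background. The part of muscle and nerve in these results was not tested.

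Of 29 tested mitotic cell cycle genes 2 were higher and 1 lower, and of 39 tested DNA replication genes 1 was higher and 0 lower, with medians of -0.14 and -0.16. Bub1, a spindle checkpoint kinase, was transiently high and read 1445 and 1407 at E14.5 and 1212 and 1218 at E16.5, against 871 and 644 at E11.5 and 858 and 987 at E18.5, with a change of 0.65 ± 0.14 (adjusted p = 0.0259). Pole, the catalytic subunit of DNA polymerase epsilon, was transiently high and read 307 and 283 at E14.5 and 243 and 209.7 at E16.5, against 169.7 and 169 at E11.5 and 116 and 156 at E18.5, with a change of 0.71 ± 0.15 (adjusted p = 0.0219). Hells, a chromatin remodeller needed for DNA methylation and for synapsis in mouse germ cells, read 2173 and 2459 at E14.5 and 1514 and 1517 at E16.5, against 1135 and 918 at E11.5 and 1093 and 1172 at E18.5. It was highest at E14.5 and above the ends at both mid stages, by 0.79 ± 0.14 (adjusted p = 0.00665). Further tested probe sets of Bub1, at 0.12, and of Hells, at -0.02 and 0.68, did not pass (adjusted p = 0.802, 0.962 and 0.125).

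**Figure D4:**
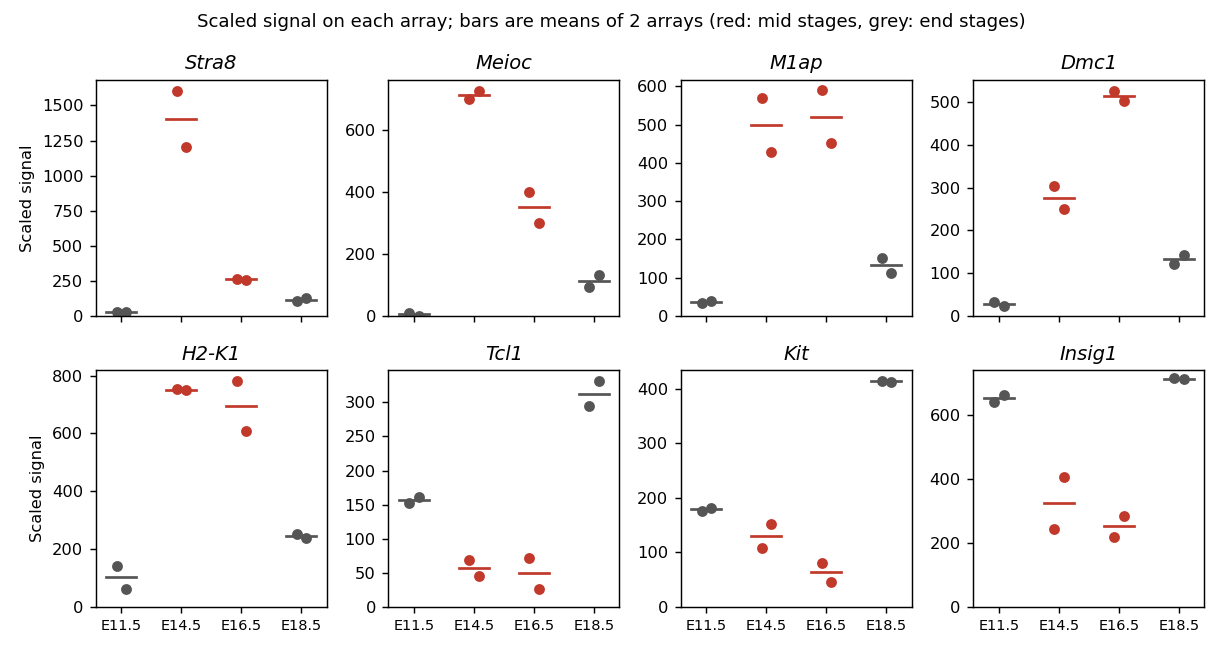
Scaled signal (y axis, linear, starting at 0 in each panel) of 8 genes on each of the 8 arrays, by stage (x axis). Points are arrays, bars are means of 2 arrays, and the mid stages are red. Stra8 and Meioc were highest at E14.5, Dmc1 at E16.5, M1ap and H2-K1 were alike at both mid stages, and Tcl1, Kit and Insig1 were lowest at the mid stages.

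The transiently low genes were led by Tcl1, an activator of the kinase AKT that is expressed in pluripotent and early embryonic cells. It read 68.4 and 44.9 at E14.5 and 71.5 and 26.8 at E16.5, against 152 and 161 at E11.5 and 294 and 332 at E18.5. All mid arrays were below all end arrays, E18.5 was the highest stage, and the change was -1.84 ± 0.22 (adjusted p = 0.000366). Kit, the receptor of stem cell factor in primordial germ cells and oocytes, read 108 and 151 at E14.5 and 80.3 and 46.3 at E16.5, against 177 and 182 at E11.5 and 415 and 413 at E18.5. It was lowest at E16.5 and highest at E18.5, with no overlap, and the change was -1.46 ± 0.18 (adjusted p = 0.000393). A further probe set of Kit also passed the test with no overlap, by -1.32 ± 0.18 (adjusted p = 0.000947).

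Of 26 tested pluripotency and primordial germ cell genes 0 were higher and 7 lower, with a median change of -0.37, and 2 of the 7, Tcl1 and Kit, were transiently low. Dppa3, a maternal factor that protects DNA methylation and marks primordial germ cells, read 820.1 and 718 at E14.5 and 96.6 and 69.6 at E16.5, against 953 and 595 at E11.5 and 3417 and 3223 at E18.5. Its E14.5 arrays lay between the E11.5 arrays, its E16.5 arrays were far below and its E18.5 arrays far above, so the groups overlapped. The change was -2.53 ± 0.17 (adjusted p = 1.96e-06). Dppa4 read 273 and 152 at E14.5 and 52 and 67.7 at E16.5, against 478 and 371 at E11.5 and 182 and 169 at E18.5, also lowest at E16.5, with a change of -1.16 ± 0.19 (adjusted p = 0.00373). Zfp42, the gene of REX1, was high at E11.5 alone and read 35.5 to 74.4 on the mid arrays, against 60.5 to 212 on the end arrays. The 26 genes summed to 10036 and 10203 at E14.5 and 4454 and 4670 at E16.5, against 12267 to 12762 at E11.5 and 8131 to 8199 at E18.5.

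Of 19 tested oocyte and primordial follicle genes 0 were higher and 6 lower, with a median change of -0.56, and Kit and Jag1 were the 2 transiently low. Jag1, a Notch ligand of germ cells, read 98 and 114 at E14.5 and 97.1 and 75 at E16.5, against 125 and 124 at E11.5 and 201 and 210 at E18.5, with a change of -0.66 ± 0.16 (adjusted p = 0.0427). Its mid arrays were below both ends, by a small margin against E11.5. The other tested probe set of Jag1 did not pass, with a change of 0.04 ± 0.2 (adjusted p = 0.938). Nobox, a transcription factor of the primordial follicle, read 25.5 and 9.5 at E14.5 and 11.8 and 5.52 at E16.5, against 22.6 and 8.92 at E11.5 and 417 and 438 at E18.5, and Lhx8, its partner in that programme, read 2.31 and 3.24 at E14.5 and 66.4 and 59 at E16.5, against 1.38 and 3.22 at E11.5 and 1310.4 and 1226 at E18.5. Both were near the floor except at E18.5, or at E16.5 and E18.5 for Lhx8, and their arrays overlapped with E11.5. The change was -2.06 ± 0.27 for Nobox and -2.0 ± 0.19 for Lhx8 (adjusted p = 0.000842 and 6.5e-05). The list summed to 1428 to 1803 on the mid arrays, against 1254 to 1261 at E11.5 and 7228 to 7597 at E18.5.

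Hey1, a transcriptional repressor that Notch signals induce, was transiently low with Jag1, and they were the 2 lower of 21 tested Notch and hedgehog genes, of which 0 were higher. Hey1 read 105 and 136 at E14.5 and 126 and 144 at E16.5, against 372 and 315 at E11.5 and 196 and 210.2 at E18.5. The mid arrays were all below the ends, and the change was -0.97 ± 0.15 (adjusted p = 0.00287). Hes1, a further Notch target, read 147 and 167 at E14.5 and 318 and 327 at E16.5, against 165 and 200.1 at E11.5 and 566 and 625 at E18.5. It overlapped and its change of -0.52 ± 0.14 did not pass the test (adjusted p = 0.0684). The receptor genes Notch1 and Notch2 changed by -0.02 and 0.06, and neither passed.

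Insig1, which holds the sterol sensor complex in the endoplasmic reticulum and is itself a target of it, was transiently low and read 243 and 406 at E14.5 and 219.8 and 284 at E16.5, against 643 and 664 at E11.5 and 716 and 714 at E18.5. Both ends were alike, and the mid arrays were below them, with a change of -1.24 ± 0.17 (adjusted p = 0.000956). Fdft1, squalene synthase, read 301 and 312 at E14.5 and 195 and 288 at E16.5, against 604 and 339 at E11.5 and 698 and 771 at E18.5, with a change of -1.05 ± 0.18 (adjusted p = 0.0073). Of 3 other tested probe sets of Fdft1, 1 was also lower past the test, at -1.01 ± 0.14, while those at 0.22 and 0.53 did not pass (adjusted p = 0.767 and 0.528). These were the 2 lower of 20 tested cholesterol genes, of which 0 were higher, and the median change of the list was -0.18. Hmgcs1, an early enzyme of the pathway, read 1913 and 1716 at E14.5 and 1611 and 1952 at E16.5, against 2681 and 2049 at E11.5 and 1807 and 1766 at E18.5 and did not pass (adjusted p = 0.567).

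Mat2b, a subunit of the enzyme that makes S-adenosylmethionine, read 499 and 471 at E14.5 and 499 and 411 at E16.5, against 907 and 671 at E11.5 and 1414 and 1333 at E18.5. All mid arrays were below the ends, with a change of -1.12 ± 0.14 (adjusted p = 0.000661). Ddah1, which breaks down an inhibitor of nitric oxide synthesis, read 139 and 129.9 at E14.5 and 199 and 169.8 at E16.5, against 538 and 361 at E11.5 and 324 and 358 at E18.5. Its E14.5 arrays were the lowest, and it changed by -1.22 ± 0.16 (adjusted p = 0.000669). Mphosph6, a cofactor of the nuclear RNA exosome, read 218 and 220.2 at E14.5 and 134 and 161 at E16.5, against 425 and 280 at E11.5 and 475 and 566 at E18.5, lowest at E16.5, with a change of -1.17 ± 0.16 (adjusted p = 0.00113). Mex3c, an RNA-binding ubiquitin ligase, read 1233 and 1591 at E14.5 and 1693 and 1534 at E16.5, against 2384 and 2262 at E11.5 and 2220.2 and 2329 at E18.5. It was the brightest of the 15 transiently low genes with the widest gaps and changed by only -0.61 ± 0.14 (adjusted p = 0.0388). The other tested probe set of Mex3c overlapped and did not pass, with a change of -0.05 ± 0.26 (adjusted p = 0.953).

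Cst9, a cystatin in the list of testis somatic genes, read 42 and 37.1 at E14.5 and 18.3 and 21.3 at E16.5, against 150.2 and 96.7 at E11.5 and 73.4 and 65 at E18.5, and its mid arrays lay below both ends, with a change of -1.28 ± 0.22 (adjusted p = 0.00633). Of 11 tested genes of that list 0 were higher and 2 lower, Cst9 and Nr0b1, with a median change of -0.06, and the list summed to 1332 to 1402 on the mid arrays, against 1330.2 to 1356 at E11.5 and 1524 to 1532 at E18.5.

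Lcp1, an actin bundling protein of leukocytes, read 22 to 54.7 on the mid arrays, against 80 to 95.2 on the end arrays and changed by -1.06 ± 0.24 (adjusted p = 0.0307). Rhebl1, a small GTPase of the mTOR pathway, read 50.1 to 113 on the mid arrays, against 152 to 223 on the end arrays, and Enkd1, a microtubule protein, read 43.6 to 74.9 on the mid arrays, against 98.7 to 125 on the end arrays. They changed by -1.03 ± 0.2 and -0.77 ± 0.17 (adjusted p = 0.0146 and 0.0346). The other tested probe set of Rhebl1 overlapped and did not pass, with a change of -0.79 ± 0.23 (adjusted p = 0.0975).

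For 4 of the widest gaps every mid array was within the range of the control probe sets, so the levels there are not measured apart from background. The lowest end arrays of Iglv1 (31.5, E11.5 replicate 2), Ttc38 (29.9, E18.5 replicate 2) and Efcab10 (19.4, E11.5 replicate 2) also lay under 36.6. The gaps of these genes therefore lie within that range. Iglv1, an immunoglobulin light chain segment, read 7.6 to 12.2 on the mid arrays, against 31.5 to 89 on the end arrays. Ttc38 read 4.13 to 11.7 on the mid arrays, against 29.9 to 70.2 on the end arrays. Efcab10 read 0.94 to 7.54 on the mid arrays, against 19.4 to 90 on the end arrays, and Tph2, the neuronal tryptophan hydroxylase, read 1.44 to 23.1 on the mid arrays, against 40.7 to 71.6 on the end arrays. Their adjusted p-values were 0.0329, 0.0457, 0.0223 and 0.0352. The same held for Mc2r, the adrenal receptor of ACTH, which read 16.3 and 3.45 at E14.5 and 5.87 and 21 at E16.5, against 132 and 152 at E11.5 and 33.2 and 21.8 at E18.5, high at E11.5 and only just above the mid arrays at E18.5, with a change of -1.63 ± 0.31 (adjusted p = 0.0143). Its E18.5 arrays were also within the range of the control probe sets, so E18.5 and the mid stages were not measured apart from background for this gene. The 9 tested steroidogenic and adrenal genes summed to 2306 to 2984 on the mid arrays, against 2234 to 2886 at E11.5 and 2217 to 2455 at E18.5, and their part in the Mc2r result was not tested.

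Some members that the naming rule did not reach are given here and were chosen after their values were seen. Cbln1, a secreted synaptic organiser, had the largest decrease among the transiently low genes and read 55.6 and 47.6 at E14.5 and 19.2 and 80.5 at E16.5, against 712 and 349.9 at E11.5 and 144 and 99.9 at E18.5, with a change of -2.08 ± 0.29 (adjusted p = 0.00139). Mybl2, Dlgap5 and Prc1, which act in mitosis or its transcription, were transiently low, with changes of -1.27 ± 0.2, -0.94 ± 0.2 and -0.85 ± 0.14 (adjusted p = 0.00298, 0.0215 and 0.00383). Of the 29 tested genes of the mitotic list 0 were transiently low, 2 were higher and 1 lower, and Bub1 was transiently high. The median change of that list was -0.14, and 9 of the 29 had a change above 0. Prc1 read 258 to 385 on the mid arrays, against 424 to 808 on the end arrays. Gpat2, a mitochondrial acyltransferase of germ cells, was transiently high and read 529 and 529 at E14.5 and 471 and 501 at E16.5, against 2.3 and 7.36 at E11.5 and 384 and 317 at E18.5, with a change of 2.59 ± 0.15 (adjusted p = 7.73e-07). The class II gene H2-Ab1 was also transiently high and read 127 to 201 on the mid arrays, against 13.4 to 70.2 on the end arrays, with a change of 1.63 ± 0.25 (adjusted p = 0.00231).

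By chromosome, in the RefSeq gene table, 14 of the 121 transiently high genes were X-linked (11.6%) and 0 of the 48 transiently low genes, while 444 of 13052 tested genes with a chromosome were X-linked (3.4%). The chromosome was looked at after the members had been seen, and the share was not tested. The median change over all 444 X-linked genes was 0.01, and 26 of them passed the test in the higher and 6 in the lower direction. The germ cell genes among the 14 were Rhox13, a homeobox gene of germ cells, and Tex16, a testis-expressed gene. Rhox13 read 467 and 421 at E14.5 and 365 and 334 at E16.5, against 30.5 and 34.1 at E11.5 and 219 and 312 at E18.5, with a change of 1.82 ± 0.15 (adjusted p = 1.91e-05). Tex16 read 302 and 200.4 at E14.5 and 209 and 144 at E16.5, against 1.26 and 0.73 at E11.5 and 82.7 and 141 at E18.5, at the floor at E11.5, with a change of 2.28 ± 0.21 (adjusted p = 4.96e-05).

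Fmr1, an RNA-binding regulator of translation whose loss or premutation in people affects the brain and the ovary, read 1039.9 and 1354 at E14.5 and 1167 and 1132 at E16.5, against 561 and 623 at E11.5 and 647 and 767 at E18.5. All mid arrays were above all end arrays, by 0.84 ± 0.14 (adjusted p = 0.00506). Txlng read 489 and 455 at E14.5 and 332 and 252 at E16.5, against 129 and 136 at E11.5 and 195 and 170.5 at E18.5, highest at E14.5, with a change of 1.17 ± 0.15 (adjusted p = 0.000516). 1700013H16Rik read 429 and 317 at E14.5 and 182 and 141 at E16.5, against 0.8 and 3.53 at E11.5 and 83.8 and 129 at E18.5, with a change of 2.48 ± 0.19 (adjusted p = 9.55e-06). The remaining ones were Wdr44, Fam90a1b, Mbnl3, Jade3, Tsc22d3, Nkrf, Fhl1, Cited1 and Bgn, with changes between 0.65 for Nkrf and 2.02 for Cited1.

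Of the 121 transiently high genes 27 stood in any of the 37 gene lists (22.3%), and of the 48 transiently low genes 9 did (18.8%), against 662 of all 13104 tested genes (5.05%), and since the lists were chosen with results of these data known, nothing is read from these shares. Other tested probe sets existed for 59 transiently high genes, and of these 102 probe sets 91 changed in the same direction, 35 of them past the test, and 0 were past it in the opposite direction. For 19 transiently low genes there were 33 other probe sets, of which 26 changed in the same direction, 11 past the test, and 0 opposite past it. The ribosomal protein, oxidative phosphorylation, imprinted and definitive erythroid lists, of 20, 25, 21 and 11 tested genes, had 0 higher and 0 lower. Over all tested genes 1.91% were higher and 1.07% lower, so lists of this size can hold 0 without differing from the rest.

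Genes that passed the test but overlapped show the other profiles behind the same contrast. Of 129 such genes in the higher direction, 115 had all mid arrays above E11.5 but not all above E18.5, as Sycp3 and Smc1b did, 13 were above E18.5 only, and 1 overlapped with both. Of 92 in the lower direction, 53 lay below E11.5 only, 37 lay below E18.5 only, as Nobox and Lhx8 did, and 2 overlapped with both. At the edge of the definition Pbx3 was just inside, at 734 to 1001 on the mid arrays, against 313 to 731 on the end arrays, and Cyld just outside, at 205 to 322 on the mid arrays, against 72.8 to 205 on the end arrays. On the low side Pkp2 was just inside, at 117 to 214 on the mid arrays, against 218 to 988 on the end arrays, and Ppm1h just outside, at 6.53 to 59.2 on the mid arrays, against 58.9 to 162 on the end arrays.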

How the data were processed

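The deposited value table held linear intensity values, 1 per probe set of each Mouse430_2 array, which the authors had already scaled, because every array had an equal trimmed mean. Extraction was by Trizol and labelling by a single cycle protocol, per the labels. The software behind the intensities is not given in the sources used here. Experiment files of the arrays were used for the array type and fluidics run only.

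Of 45101 probe sets, 64 controls were left out. The probe annotation of the platform gave 34945 probe sets 1 symbol, 932 several and 9160 none, and genes were named only from probe sets with 1 symbol. No 2 arrays held identical values. Scaling brought the 75th percentile of every array to a shared value, and tests were limited to probe sets that reached the overall median of the 8 arrays on 2 or more of them. limma 3.58.1 in R 4.3.3 fitted 1 mean per stage to log2(scaled signal + 16), with eBayes and an intensity trend. The contrast was the mean of E14.5 and E16.5 minus the mean of E11.5 and E18.5, two-sided, with Benjamini-Hochberg adjustment over all 26890 tested probe sets and a threshold of 0.05. The residual degrees of freedom were 4, the prior ones 9.26, and the median SE 0.192. With 2 arrays a stage, their number limits the precision. Python 3.11.15 with pandas 2.3.3, numpy 2.4.6 and, for figures, matplotlib 3.10.9 made the tables. In 5 simulations that each changed 200 of the 26890 probe sets, 68.8% of changes of 1 and 93.4% of changes of 2 on the log2 scale were recovered for this comparison. The simulated arrays had independent normal noise, the same change on every mid array, and no other stage or run differences. The data do have stage differences within the groups, so these shares hold for that simpler setting only.

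Named genes are the 15 transient genes with the widest gap in each direction and up to 4 members of each of the 37 gene lists with the largest change past the test; others are said to be chosen after their values were seen, or illustrate a list. The members, lists and motifs were chosen with earlier results of these data known. Alternatives tried were the scaling, the value added before the logarithm, the filter, the trend, 2 groups, the fluidics run and the replicate number as blocks, the E12.5 arrays in the fit, and leaving out each array.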

Additional observations from a re-analysis of the deposited data

Results flagged for a closer look

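Among the 92 named genes, the 4 mid arrays and the 4 end arrays of each gene were examined for an array far from the other 3, which makes 184 groups, and 3 had one by Dixon's 95% criterion for 4 values. Chance alone flags about 1 in 20 groups of 4 values drawn alike. Each group here holds 2 stages, which can differ, so that rate need not apply. The scaled signal of H2-K1 was 607.34 on E16.5 replicate 2, against 749 to 782 on the other mid arrays. Fdft1 was 195.09 on E16.5 replicate 1, against 288 to 312 on the other mid arrays. Elavl3 was 19.62 on E11.5 replicate 1, against 5.44 to 6.27 on the other end arrays, all of them within the range of the control probe sets with no spiked target. All 3 genes are transiently high or low, so by that definition each array lay on its own side of the gap between the mid and the end arrays.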

How the results depend on the processing

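Values as deposited, quantile normalization and 1 or 64 added before the logarithm kept all 4 counts within 1.5 times. So did a filter on the mean and no intensity trend. A fit of 9 arrays with E12.5 replicate 1 did too, but was bound to stay close. That array had a stage mean of its own and so left no residual. With no filter 281 probe sets were higher and 140 lower. With mid and end as 2 groups, limma called 0 probe sets in either direction, 0 transiently high genes and 0 transiently low genes. These counts were also 0 when the fluidics run was added to that fit as a random block (consensus correlation 0.405). E11.5 and E18.5 were in different runs, so this correlation also takes in the difference between those stages. At an unadjusted p under 0.05, the fit of 2 groups had 1088 higher and 637 lower probe sets. With the run as a block there were 228 and 75. With all 10 arrays in the fit, 18 probe sets were higher and 1 lower, with 774 and 398 at an unadjusted p under 0.05, and 12 genes were transiently high and 0 transiently low. All 12 were among the 121. The E12.5 arrays that this fit added had 3′ to 5′ signal ratios of 10.6 and 4.09 for Actb and 2.17 and 2.39 for Gapdh. On the arrays compared these were 1.51 to 2.22 and 0.755 to 1.28. As deposited, the 75th percentiles of the E12.5 arrays were 118.9 and 190.8. The change itself was the same in this fit, so the lower counts come from its error. The part of array quality in that error was not tested. Counted over all tested probe sets in place of the brightest of a gene, 208 were transiently high and 83 transiently low. Leaving out each array in turn gave 225 to 490 higher and 82 to 353 lower probe sets, 73 to 124 transiently high and 23 to 92 transiently low genes. The counts past 1.5 times were 233, 240 and 225 higher probe sets without E14.5 replicate 1, E16.5 replicate 1 and E18.5 replicate 1. For lower probe sets they were 151 and 353 without E11.5 replicate 1 and replicate 2, 100 without E14.5 replicate 1, 125 and 146 without E16.5 replicate 1 and replicate 2, and 82 and 89 without E18.5 replicate 1 and replicate 2. The cause was not tested. Replicate numbers did not pair the samples, since deviations of same-numbered arrays correlated at -0.087 to 0.046, and with a replicate block 444 probe sets were higher and 207 lower and 116 and 42 genes transiently high and low. Of the 92 named genes, those that were tested under a setting kept their direction. The filter, the trend, the 2 groups, the blocks and the E12.5 arrays leave the change itself as it was, so no direction could reverse there. Nor could that of a transiently high or low gene with an array left out. All 92 missed the threshold in the fit of 2 groups and with the run as a block, and 80 did with all 10 arrays. The filter on the mean left 12 of them untested, and leaving out an array left 0 to 5 untested and 15 to 30 short of the threshold. The median change of the pancreas list was -0.26, 0.13 with the filter on the mean, and -0.45 to 0.0 with an array left out. That of the pregranulosa list was 0.11, and -0.01 to 0.2 with an array left out. Low signals limit 32 transiently high genes, whose E11.5 arrays were both within the range of the control probe sets. They also limit 5 transiently low genes, whose 4 mid arrays all were. All 4 end arrays were within that range for 3 of the transiently high genes.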

Other observations

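In the lists of other tissues, a few genes passed the test but were not transiently high or low. Pnliprp2, a pancreatic lipase relative, read 16.1 and 10.3 at E14.5 and 3.85 and 6.11 at E16.5, against 482 and 663 at E11.5 and 13.8 and 3.18 at E18.5, high at E11.5 alone, and was the only one of 9 tested exocrine pancreas and gut genes to pass. The sum of that list was 377 to 468 on the mid arrays, against 1253 to 1778 at E11.5 and 460 to 496 at E18.5. Afp, the fetal plasma protein of liver and yolk sac, read 866 and 2295 at E14.5 and 215 and 211 at E16.5, against 8.15 and 12.3 at E11.5 and 585 and 615 at E18.5, so it was low at E11.5 and highest on the E14.5 arrays, which were far apart. The 16 tested liver and plasma protein genes summed to 3720 to 7902 on the mid arrays, against 1486 to 1579 at E11.5 and 9852 to 10373 at E18.5.

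The globin genes of primitive red cells were high at E11.5 and passed the test in the lower direction in 2 of 3 tested members. Hbb-bh1 read 356 and 296 at E14.5 and 26.4 and 30.9 at E16.5, against 8403 and 4928 at E11.5 and 53.4 and 38.8 at E18.5, with a change of -2.36 ± 0.18 (adjusted p = 8.53e-06), and it was lower at E14.5 than at E11.5 and lower again at E16.5 and E18.5. Pecam1, an endothelial adhesion gene, was the only lower one of 22 tested endothelial genes, and it read 36.6 and 58.5 at E14.5 and 136 and 108 at E16.5, against 146 and 274 at E11.5 and 114 and 135 at E18.5, with its lowest values at E14.5.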
